A study of Mus musculus with 9 samples.

Results

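Human pancreatic neuroendocrine tumors (PanNETs) carry recurrent loss-of-function mutations in a small group of tumor suppressors, and they lose another, PHLDA3, mostly through loss of an allele and promoter methylation. The mouse counterparts of these genes (Men1, Daxx, Atrx, Setd2, Arid1a, Tsc1 and Tsc2, and Phlda3) and of Kmt2a, a methyltransferase that works with menin, were followed in the RNA of mouse PanNETs driven by p25, an activator of the kinase Cdk5. These 9 genes were chosen by name, with earlier results of these data known, and no measured value entered the rule. They are 9 of 54347 genes in the deposited table, and all 9 were among the 15532 genes with enough reads to be tested (a counts-per-million value, CPM, of 1 or more in 3 or more libraries). Their levels were compared between tumors and normal islets and between functional and non-functional tumors. The table holds RNA levels only. Mutations, protein and truncated transcripts were not measured in it, so a mutation that leaves the RNA level as it was would not be seen.

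The 9 libraries, 1 per sample, came from 3 functional tumors (M1 to M3, which the labels tag with "Inulin" and the study calls functional), 3 non-functional tumors (M4 to M6) and 3 samples of normal islets (NI1 to NI3). Tumors came from INS-p25OE mice, which carry both Ins2-rtTA, a doxycycline-dependent activator under the insulin promoter, and tetOp-p25GFP. Expression is therefore directed to beta cells, although some transgene was seen without doxycycline by the study. Offspring received doxycycline in drinking water from weaning at 3 to 4 weeks of age, the islet samples are labelled C57BL/6 and beta islets, and the stated controls were transgene-negative littermates housed with the bi-transgenic mice on the same C57BL/6 background. M2 came from a female and the other 8 libraries from males, and ages at collection are not given in the sources used here. The labels do not say whether each library came from a separate mouse. The study states in general that its sample sizes are biological rather than technical replicates. The p-values measure the spread between these libraries.

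Menin, the product of Men1, is a scaffold that brings the histone H3 lysine 4 methyltransferases Kmt2a and Kmt2b to chromatin, and in islets this complex is known to keep cell cycle inhibitors such as Cdkn1b and Cdkn2c expressed. Daxx and Atrx act as a pair that deposits the histone variant H3.3 at telomeres and other repeats, and their loss in human tumors goes with telomere maintenance without telomerase. Setd2 trimethylates histone H3 lysine 36, Arid1a is a subunit of the SWI/SNF chromatin remodeler, and Tsc1 and Tsc2 form the complex that restrains mTOR. Phlda3 is a p53 target that competes with Akt for membrane lipids and so restrains Akt upstream of mTOR.

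Between 36468280 and 63637175 reads per library were assigned to genes, and a floor of 3 counts corresponded to 0.0425 to 0.119 CPM. All members lay far above that floor: the lowest member count in any library was 204 (Phlda3 in NI3). Mitochondrial genes took 32.1% of the counts in M4, against 3.54% to 8.41% in the other tumors and 1.76% to 4.94% in islets. The library labelled NI1 went against its label in some values and with it in others. Cdk5r1, the gene from which p25 derives, stood at 279.6 CPM in NI1, against 18.4 CPM in NI2, 12.5 CPM in NI3 and 149 to 401 CPM in the tumors. NI1 also lay nearer to M6 than any other pair of libraries lay to each other: over the 15532 tested genes the median absolute log2 difference between NI1 and M6 was 0.11, against 0.22 between NI2 and NI3 and 0.30 to 0.65 for the remaining pairs. Other genes of NI1 ran with the islets: the immediate-early gene Fos stood at 156 CPM against 1.41 to 3.92 CPM in tumors, glucagon (Gcg) at 787 CPM against 10.03 to 239 CPM, and the acinar markers summed to 681 CPM against at most 369.5 CPM. The member levels of NI1 were 88.6% to 111% of those of M6. Comparisons with islets are therefore given with and without NI1, and with NI1 and M6 both left out.

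Markers of other cells differed between the groups. The summed level of 10 beta cell markers was 18880 to 117200 CPM in tumors and 122400 to 365700 CPM in islets, and that of 6 neuroendocrine markers was 10420 to 33670 CPM in tumors and 18230 to 37040 CPM in islets, so endocrine identity was present in all 9 libraries. Acinar markers (10 genes) summed to 1.01 to 369.5 CPM in tumors, where 6 of them had a count of 0 in some tumor, and to 681 to 12840 CPM in islets. Fibroblast markers (7 genes) summed to 149 to 2145 CPM in tumors and 167 to 209 CPM in islets, and macrophage markers (6 genes) to 393 to 1070 CPM and 171 to 381.5 CPM. Early-response genes that tissue dissociation is known to induce (10 genes) summed to 84.6 to 151 CPM in tumors and 551 to 2579 CPM in islets. Alpha, delta and PP cell markers (7 genes) summed to 428 to 3277 CPM in tumors and 1530 to 19000 CPM in islets. Endothelial markers (6 genes) summed to 337 to 1053 CPM and 994 to 1112 CPM, lymphoid markers (6 genes) to 4.33 to 97.5 CPM and 135 to 146 CPM, and ductal markers (5 genes) to 125 to 279 CPM and 158 to 269.7 CPM. The part of these differences in the members' values was not tested, and in bulk tissue fewer cells of a type and less RNA per cell cannot be told apart.

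Across all 6 tumors against the 3 islet libraries, none of the tumor suppressors was significantly lower in tumors, and the largest difference was a higher level of Phlda3. In the quasi-likelihood fit of edgeR, adjusted by Benjamini-Hochberg over 15532 genes, 0 of the 9 members passed an adjusted p under 0.05, 1 (Phlda3) had an unadjusted p under 0.05, limma-voom called 0 and DESeq2 called 1 (Phlda3). In this comparison edgeR called 0% of tested genes higher and 0.258% lower, so few genes of any kind passed. DESeq2 called 764 of the 15532 tested genes higher and 488 lower, and limma-voom called 0 and 33. By edgeR, 1655 genes higher and 1419 lower had an unadjusted p under 0.05. The log2 fold change was above 0 for 7 members and below 0 for Men1 and Daxx, with a median of 0.29 over the 9 members and 0.03 over all tested genes. Daxx changed sign, to 0.003, when library totals were used without the TMM factor (edgeR's scaling by the trimmed mean of log ratios), a scaling that moved the median of all genes by 0.21. With NI1 left out, 1 member (Phlda3) was called higher and 0 lower, against 5.34% and 3.17% of tested genes, and 3 members had an unadjusted p under 0.05 (Tsc1, Kmt2a and Phlda3). The same comparison by DESeq2 called Tsc1 as well, and limma-voom called 1. Over all tested genes DESeq2 called 1909 higher and 1041 lower without NI1, and limma-voom 450 and 615. By edgeR, 2327 genes higher and 1793 lower had an unadjusted p under 0.05 there. Counts in the gene lists below are to be read beside these totals. With NI1 and M6 both left out the other 8 members lay between -0.44 (Men1) and 0.675 (Tsc1) and Phlda3 was again the 1 member called. Against NI2 and NI3 alone, 5 members had every tumor above both islet libraries (Atrx, Arid1a, Tsc1, Kmt2a and Phlda3) and 2 had every tumor below (Men1 and Daxx), beside 16.6% and 16.3% of tested genes.

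**Figure D1:**
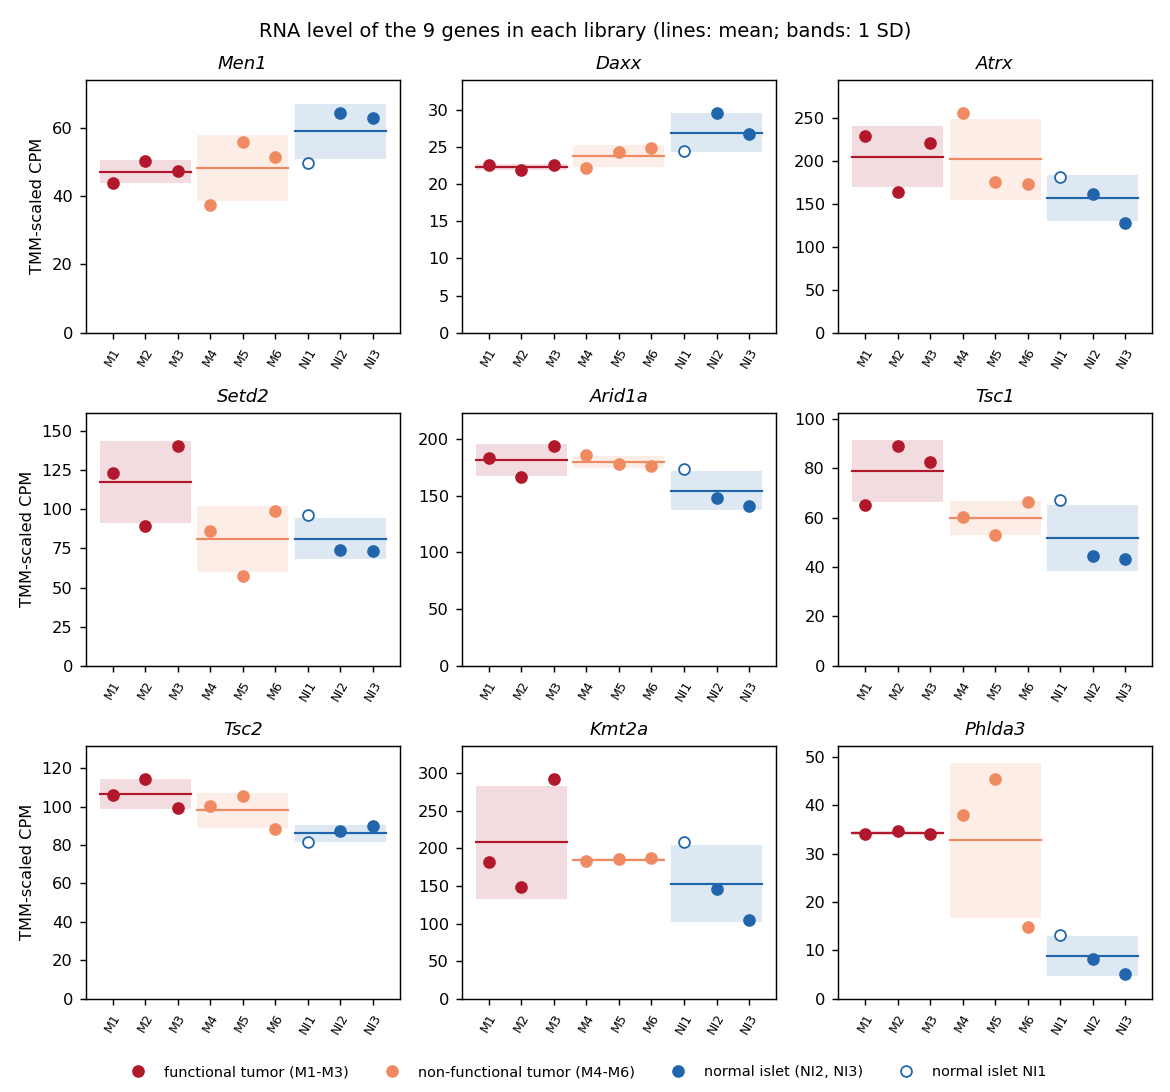
Level of each of the 9 genes in each library, as TMM-scaled CPM on a linear axis from 0, with the mean (line) and 1 SD (band) of the 3 libraries of each group. Phlda3 is the only gene of the 9 whose 6 tumors (14.8 to 45.5 CPM) all sit above all 3 islet libraries (5.06 to 13.1 CPM), and the open symbol of NI1 lies within the range of the tumors for 7 of the 9 genes.

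Men1 (ENSMUSG00000024947, chromosome 19, 6334979 to 6340891 on GRCm38, plus strand) had levels of 43.8, 50.5 and 47.4 CPM in the functional tumors M1 to M3. In the non-functional tumors M4 to M6 it had 37.3, 55.8 and 51.6 CPM. In the islets it had 49.8 CPM in NI1, 64.5 CPM in NI2 and 63.0 CPM in NI3. All 6 tumors lay below NI2 and NI3, but only 3 of them lay below NI1. Tumors averaged 47.7 ± 6.50 CPM (SD, n = 6) and islets 59.1 ± 8.11 CPM (SD, n = 3), a log2 fold change of -0.31 (SE 0.17, 95% interval -0.69 to 0.07, edgeR adjusted p = 0.339). Without NI1 the value was -0.42 (interval -0.84 to 0.01, edgeR adjusted p = 0.194). As a ratio of tumor to islet level, the interval with all libraries ran from 0.621 to 1.05, and the lowest Men1 count in any tumor was 941 (M4). Without the TMM factor the value was -0.06.

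Kmt2a (ENSMUSG00000002028, chromosome 9, 44803355 to 44881296, minus strand), the methyltransferase that menin recruits, was read at 182, 149 and 293 CPM in M1 to M3 and at 183, 185 and 187 CPM in M4 to M6. NI1 had 208 CPM, NI2 had 147 CPM and NI3 had 105 CPM. M3 stood above every other library, and NI1 was the second highest. The log2 fold change of tumors against islets was 0.36 (SE 0.26, interval -0.23 to 0.95, edgeR adjusted p = 0.468), and without NI1 it was 0.64 (interval 0.01 to 1.28, edgeR adjusted p = 0.182). An antisense gene shares 378 bases (2.27%) of its exons, and the kit did not mark strand, so reads from that stretch cannot be assigned.

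Of 13 other genes of the menin and MLL complexes, 0 passed edgeR's adjusted test of tumors against islets, with or without NI1, and 1 had an unadjusted p under 0.05. DESeq2 called 0 with NI1 and 1 (Psip1) without it, and limma-voom called 0 in both. Psip1, which tethers menin to chromatin, had a tumor mean of 255 ± 58.2 CPM (SD, n = 6) and an islet mean of 162 ± 44.8 CPM (SD, n = 3), an edgeR log2 fold change of 0.65 (adjusted p = 0.200), and Rbbp5, a shared core subunit, had one of 0.22 (adjusted p = 0.525). The inhibitors that menin keeps expressed were not lower in tumors. Cdkn2c, which encodes p18, was read at 80.3 to 129 CPM in the 6 tumors, at 77.8 CPM in NI1, at 18.5 CPM in NI2 and at 10.5 CPM in NI3. Every tumor was above every islet library for Cdkn2c, as was so for 4.5% of tested genes. Its log2 fold change was 1.54 (SE 0.54, edgeR adjusted p = 0.182) and became 2.84 without NI1 (edgeR adjusted p = 0.00292). Of Cdkn2c and Cdkn1b, DESeq2 called 1 (Cdkn2c) in both comparisons, and limma-voom called 0 with NI1 and 1 without it. Cdkn1b, which encodes p27, had 161, 168 and 198 CPM in the functional tumors, 97.5, 93.2 and 132 CPM in the non-functional ones and 88.8 to 126 CPM in islets (edgeR adjusted p = 0.356).

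Daxx (ENSMUSG00000002307, chromosome 17, 33909414 to 33915590, plus strand) was the most even member. Its levels were 22.6, 21.9 and 22.6 CPM in M1 to M3 and 22.2, 24.3 and 24.97 CPM in M4 to M6. NI1 had 24.5 CPM, NI2 had 29.7 CPM and NI3 had 26.8 CPM. All 6 tumors lay below NI2 and NI3, and 5 of the 6 lay below NI1. Tumors against islets gave a log2 fold change of -0.22 (SE 0.15, interval -0.56 to 0.11, edgeR adjusted p = 0.426), -0.29 without NI1 (edgeR adjusted p = 0.318) and 0.003 without the TMM factor.

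Atrx (ENSMUSG00000031229, chromosome X, 105797615 to 105929403, minus strand), the partner of Daxx, had 229, 164 and 221 CPM in M1 to M3 and 256, 176 and 174 CPM in M4 to M6. NI1 had 181 CPM, NI2 had 162 CPM and NI3 had 128 CPM. The tumors all lay above NI2 and NI3, and M1, M3 and M4 also lay above NI1. The log2 fold change was 0.37 (SE 0.20, interval -0.08 to 0.83, edgeR adjusted p = 0.336), and without NI1 it was 0.49 (edgeR adjusted p = 0.230). The signs of Daxx and Atrx were thus opposite under TMM scaling, and neither value passed the test.

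Among 16 other genes of H3.3 deposition and telomere chromatin, edgeR called 0 in tumors against islets, 4 had an unadjusted p under 0.05, DESeq2 called 1 (Asf1b) and limma-voom called 0. Without NI1 DESeq2 called 4, limma-voom called 1 and edgeR called 1 higher, Asf1b, a chaperone that hands new histone H3 to the replication machinery. It was read at 17.6 to 35.3 CPM in tumors, at 13.3 CPM in NI1, at 4.56 CPM in NI2 and at 2.65 CPM in NI3 (log2 fold change 1.94, edgeR adjusted p = 0.145, and 2.86 without NI1, edgeR adjusted p = 0.00519). Acd, the shelterin subunit TPP1, had a log2 fold change of 0.63 (edgeR adjusted p = 0.185), with 40.3 to 63.0 CPM in tumors and 23.1 to 40.7 CPM in islets. For the sum of 8 proliferation markers, as for Asf1b, M6 was the lowest tumor and NI1, NI2 and NI3 followed below it. That sum was 701 to 1406 CPM in tumors, 630 CPM in NI1, 209 CPM in NI2 and 108 CPM in NI3. Taken singly, M6 was the lowest tumor for 5 of the 8 markers and M4 for 3.

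Setd2 (ENSMUSG00000044791, chromosome 9, 110532597 to 110618633, plus strand) was the member whose tumor groups stood furthest apart. It had 123, 89.3 and 141 CPM in M1 to M3 and 86.1, 57.5 and 99.2 CPM in M4 to M6. NI1 had 96.4 CPM, and NI2 and NI3 had 74.2 and 73.3 CPM. M1 and M3 were the highest of the 9 libraries and M5 was the lowest. Against islets the log2 fold change was 0.29 (SE 0.26, interval -0.29 to 0.87, edgeR adjusted p = 0.563) and without NI1 0.43 (edgeR adjusted p = 0.404). Of 9 other genes that write or erase H3 lysine 36 methylation, edgeR called 0 with or without NI1, 1 (Nsd2) had an unadjusted p under 0.05, DESeq2 called 0 with NI1 and 1 (Nsd2) without, and limma-voom called 0. Nsd2, a lysine 36 dimethyltransferase, had 75.8 to 139 CPM in tumors and 45.9 to 75.3 CPM in islets (log2 fold change 0.73, edgeR adjusted p = 0.181). Its tumors and islets did not overlap, as for 4.5% of tested genes in this direction, but M5 (75.84 CPM) barely exceeded NI1 (75.28 CPM). Kdm4a, a demethylase, had a log2 fold change of -0.20 (edgeR adjusted p = 0.624).

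Arid1a (ENSMUSG00000007880, chromosome 4, 133679008 to 133756769, minus strand) had 183, 166 and 194 CPM in M1 to M3 and 186, 178 and 176 CPM in M4 to M6. NI1 had 174 CPM, NI2 had 148 CPM and NI3 had 141 CPM. Of the 6 tumors 5 were above NI1 and all 6 were above NI2 and NI3. Its log2 fold change was 0.23 (SE 0.15, interval -0.10 to 0.55, edgeR adjusted p = 0.405), and without NI1 0.32 (edgeR adjusted p = 0.259). Among 24 other SWI/SNF subunits edgeR called 0 in both comparisons, 2 had an unadjusted p under 0.05 with NI1 and 6 without, DESeq2 called 1 (Brd9) and 5, and limma-voom called 0 in both. Of all 15532 tested genes, DESeq2 called 764 higher and 488 lower with NI1, and 1909 and 1041 without. Smarcc1, a core scaffold subunit, had 69.2 to 106 CPM in tumors and 53.3 to 65.9 CPM in islets (log2 fold change 0.55, edgeR adjusted p = 0.169), and Brd9 had 55.1 to 175 CPM and 26.4 to 59.8 CPM (log2 fold change 1.23, edgeR adjusted p = 0.171).

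Tsc1 (ENSMUSG00000026812, chromosome 2, 28641228 to 28691167, plus strand) was the member next to Phlda3 in size of difference. It had 65.1, 89.2 and 82.7 CPM in M1 to M3 and 60.2, 52.9 and 66.5 CPM in M4 to M6. NI1 had 67.1 CPM, whereas NI2 and NI3 had 44.3 and 43.4 CPM. Only M2 and M3 exceeded NI1, while all 6 tumors exceeded NI2 and NI3. This gave a log2 fold change of 0.43 (SE 0.22, interval -0.06 to 0.92, edgeR adjusted p = 0.308), and without NI1 0.66 (interval 0.14 to 1.19, edgeR adjusted p = 0.109). Functional tumors against NI2 and NI3, with M6 also left out of the fit, gave 0.85 (SE 0.21, edgeR adjusted p = 0.0485), a call that was not made with NI1 included (0.61, edgeR adjusted p = 0.175).

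Tsc2 (ENSMUSG00000002496, chromosome 17, 24595816 to 24632630, minus strand) had 106, 114.5 and 99.3 CPM in M1 to M3 and 100.4, 106 and 88.1 CPM in M4 to M6. NI1 had 81.3 CPM, NI2 had 87.4 CPM and NI3 had 89.96 CPM. M6 was the only tumor inside the islet range. Its log2 fold change was 0.25 (SE 0.14, interval -0.06 to 0.56, edgeR adjusted p = 0.348), and without NI1 0.21 (edgeR adjusted p = 0.463). Pkd1, which ends against Tsc2 on the other strand, covers 693 bases (7.20%) of the Tsc2 exons, and reads there cannot be assigned to a strand.

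In the wider TSC and mTOR pathway, 0 of 27 genes passed edgeR's adjusted test, 4 had an unadjusted p under 0.05 (2 higher, 2 lower), DESeq2 called 1 (Ddit4) and limma-voom called 0. Without NI1, 1 gene was called higher (Rhebl1, a homolog of the mTOR activator Rheb, named after its values were seen) and 1 lower (Ddit4). Ddit4, which activates the TSC complex under stress, had 16.2 to 29.9 CPM in tumors, 21.3 CPM in NI1, 98.5 CPM in NI2 and 43.6 CPM in NI3 (log2 fold change -1.26, edgeR adjusted p = 0.161, and -1.64 without NI1, edgeR adjusted p = 0.0153). The sum of the dissociation-response genes was 2579 CPM in NI2, 1367 CPM in NI3 and also above the tumors in NI1 (551 CPM), where Ddit4 was at the level of the tumors. Deptor, an inhibitory subunit of mTOR, had 96.6 to 166 CPM in tumors and 163 to 172 CPM in islets (log2 fold change -0.50, edgeR adjusted p = 0.203), and Mtor had 53.1 CPM in both means (log2 fold change 0.002, edgeR adjusted p = 0.997).

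**Figure D2:**
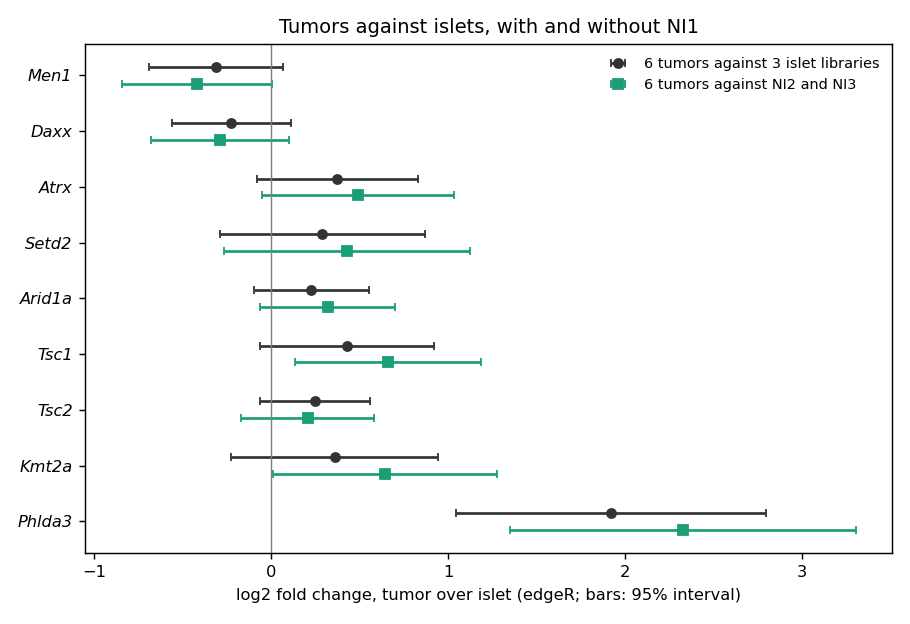
Log2 fold change of each gene in the 6 tumors over the islets from edgeR's quasi-likelihood fit, with the 95% interval as a bar, for all 3 islet libraries (circles) and for NI2 and NI3 only (squares). The intervals of 8 genes include 0 with all libraries, Phlda3 lies at 1.92 (1.05 to 2.80), and without NI1 the intervals of Tsc1 and Kmt2a also lie above 0. Without the TMM factor Daxx moves to 0.003.

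Phlda3 (ENSMUSG00000041801, chromosome 1, 135766119 to 135769136, plus strand) was the only member whose tumors and islets did not overlap, as was so for 4.5% of tested genes in the higher direction and 3.17% in the lower. Its levels were 34.1, 34.7 and 34.1 CPM in M1 to M3 and 37.9, 45.5 and 14.8 CPM in M4 to M6. NI1 had 13.1 CPM, NI2 had 8.295 CPM and NI3 had 5.06 CPM. The functional tumors were nearly equal, M5 was the highest library, and M6 stood far below the other tumors and just above NI1. Tumors averaged 33.5 ± 10.2 CPM (SD, n = 6) and islets 8.82 ± 4.05 CPM (SD, n = 3), a 3.80-fold difference (interval 2.07 to 6.96) and a log2 fold change of 1.92 (SE 0.39). The edgeR adjusted p was 0.107, so the difference did not pass with all libraries. It passed by DESeq2 (adjusted p = 0.000129), without NI1 (log2 fold change 2.33, SE 0.44, edgeR adjusted p = 0.0156), without M6 (2.08, edgeR adjusted p = 0.0269) and with NI1 and M6 both left out (2.48, edgeR adjusted p = 0.0046). M6 was the lowest tumor and NI1 the highest islet library for this gene, so leaving them out must widen the difference. Phlda3 did not pass without NI2 (1.88, edgeR adjusted p = 0.552) or without NI3 (1.65, edgeR adjusted p = 0.509). Over 19 alternatives, 6 of which called the gene, the log2 fold change ran from 1.65 to 2.48 and the adjusted p from 0.000129 to 0.552. Against islets the 3 functional tumors had a log2 fold change of 1.96 (edgeR adjusted p = 0.0960) and the 3 non-functional ones 1.89 (edgeR adjusted p = 0.332).

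The stretch just before the start of Phlda3 is shown because this gene carried the largest difference. These are the 250 bases upstream of the RefSeq start, chr1:135765835-135766084 on GRCm38.p6, plus strand, with each CG dinucleotide in capitals.
Phlda3: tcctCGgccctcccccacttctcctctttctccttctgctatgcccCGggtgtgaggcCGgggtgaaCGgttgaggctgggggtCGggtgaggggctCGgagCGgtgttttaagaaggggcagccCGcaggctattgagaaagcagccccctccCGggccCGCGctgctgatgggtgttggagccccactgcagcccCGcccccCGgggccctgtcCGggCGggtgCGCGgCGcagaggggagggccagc
The window holds 18 CG dinucleotides, against a median of 6 over 32851 RefSeq promoter windows of this length, and 21.7% of those windows hold as many or more. No p53 half-site (searched by its consensus, which reads the same on both strands) lies in this window or in the other 13 windows of the members, while 7.13% of all windows hold one. That says only that these letters are not in these 250 bases.

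Phlda3 was set beside its family and beside known p53 targets. Of 15 genes listed 14 were tested, and edgeR called 0 in tumors against islets, with 4 at an unadjusted p under 0.05. Of all 15532 tested genes, 1655 higher and 1419 lower had such a p. DESeq2 called 2 (Cdkn1a and Eda2r) and limma-voom called 0. Without NI1 edgeR called 2 higher (again Cdkn1a and Eda2r) and 0 lower, DESeq2 called 3 and limma-voom called 1. The median log2 fold change of the 14 was 0.58, against 0.03 over all tested genes.

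Cdkn1a, which encodes the cell cycle inhibitor p21, had 144, 262 and 139 CPM in M1 to M3 and 122, 160 and 51.1 CPM in M4 to M6. The islets had 41.6 CPM in NI1, 35.6 CPM in NI2 and 33.2 CPM in NI3. All 6 tumors lay above the islets, as was so for 4.5% of tested genes, and M6 was again the lowest tumor. The log2 fold change was 1.99 (SE 0.42, edgeR adjusted p = 0.118) and without NI1 2.09 (edgeR adjusted p = 0.0415). Eda2r, a death receptor of the TNF family, had 31.1, 30.2 and 23.7 CPM in M1 to M3, 17.2 and 13.2 CPM in M4 and M5, and 1.87 CPM in M6. NI1 had 2.31 CPM, NI2 had 0.976 CPM and NI3 had 0.744 CPM, so M6 lay inside the islet range (log2 fold change 3.85, edgeR adjusted p = 0.126, and 4.50 without NI1, edgeR adjusted p = 0.0298). Ccng1 and Zmat3 (chosen for the plot of p53 targets after their values were seen) were also lowest in M6 among the tumors, at 58.1 and 40.9 CPM, against 99.7 to 291 CPM and 75.5 to 107 CPM in M1 to M5. Over all 14 tested genes of the list, M6 was the lowest tumor for 8 (Mdm4, Cdkn1a, Ccng1, Bax, Bbc3, Zmat3, Aen and Eda2r) and the highest for 1 (Sesn1, 76.7 CPM against 27.8 to 56.6 CPM). Trp53, which encodes p53 itself, did not follow this order: M6 had 58.1 CPM, the other tumors 40.2 to 58.4 CPM, and the islets 27.8 to 52.2 CPM (log2 fold change 0.43, edgeR adjusted p = 0.321).

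The fibroblast markers also set M6 apart, with a sum of 149 CPM in M6 and 167 CPM in NI1, against 543 to 2145 CPM in M1 to M5. The sum of the proliferation markers was lowest in M6 as well, at 701 CPM, but M4 was close to it at 727.5 CPM. M6 was the lowest tumor for 5 of these 8 genes (Mki67, Top2a, Ccnb1, Bub1 and Ccna2) and M4 for 3. The part of the fibroblast and proliferation markers in the Phlda3 values was not tested. Phlda1, the other tested gene of the family, had a log2 fold change of 0.14.

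**Figure D3:**
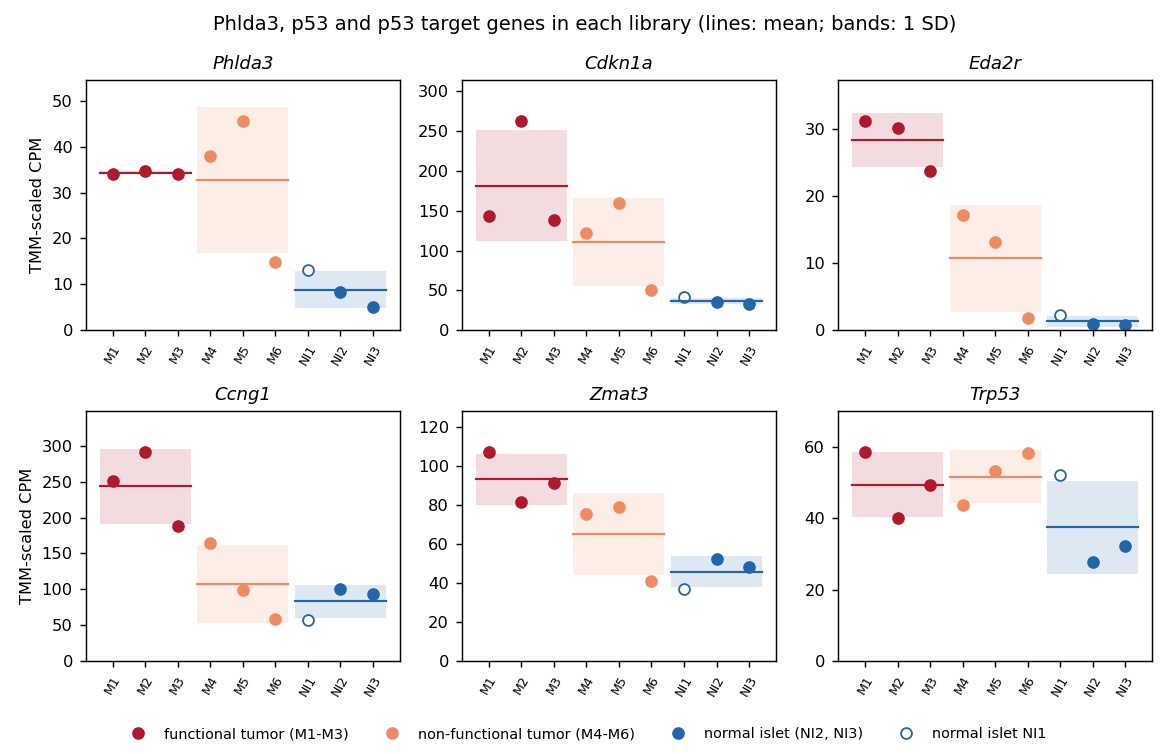
Level of Phlda3, 4 p53 target genes and Trp53 in each library, as TMM-scaled CPM on linear axes from 0, with the mean (line) and 1 SD (band) of each group. M6 is the lowest tumor for Phlda3 (14.8 CPM), Cdkn1a (51.1 CPM), Eda2r (1.87 CPM), Ccng1 and Zmat3 and lies beside NI1 in each, while for Trp53 it has 58.1 CPM, within the range of the other tumors.

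Functional and non-functional tumors were then compared, in a fit of all 3 groups. No member was called by edgeR (0 of 9), by DESeq2 (0) or by limma-voom (0), none had an unadjusted p under 0.05, and none was without overlap between the groups, whereas 8.77% of tested genes were higher in all 3 functional tumors than in any non-functional one. Of all tested genes edgeR called 0% in either direction, and DESeq2 called 22 higher and 89 lower. An unadjusted p under 0.05 by edgeR was found for 732 genes higher and 866 lower. Setd2 had the widest difference, with means of 118 ± 26.2 CPM in functional and 80.9 ± 21.3 CPM in non-functional tumors (SD, n = 3 each) and a log2 fold change of 0.54 (SE 0.25, interval -0.03 to 1.12, edgeR adjusted p = 0.5). Tsc1 followed, with 79.0 ± 12.5 CPM and 59.9 ± 6.83 CPM (SD, n = 3 each) and a log2 fold change of 0.40 (interval -0.10 to 0.90, edgeR adjusted p = 0.557). The remaining 7 lay between -0.09 and 0.17. For Daxx the interval ran from -0.49 to 0.31, for Arid1a from -0.36 to 0.38, for Men1 from -0.49 to 0.43 and for Phlda3 from -0.91 to 1.05, so differences within these bounds could not be told from 0. Without M6 the values of Phlda3 (-0.28), Men1 (0.02), Atrx (-0.08) and Arid1a (-0.004) changed sign and that of Setd2 was 0.71 (edgeR adjusted p = 0.303), and without the TMM factor all 9 members were above 0, with a shift of 0.31 in the median of all genes.

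Against islets, each tumor group alone gave 0 called members by edgeR, where 0.0451% of tested genes were called higher and 0.431% lower in functional tumors and 0% in either direction in non-functional tumors. In functional tumors 2 members had an unadjusted p under 0.05 (Tsc1 and Phlda3) and in non-functional tumors 1 (Phlda3). Over all tested genes 1755 higher and 1525 lower had such a p in functional tumors, and 1285 and 961 in non-functional tumors. DESeq2 called 1 member (Phlda3) in each, and limma-voom called 0 in each. Over all tested genes DESeq2 called 775 higher and 781 lower in functional tumors, and 242 and 152 in non-functional tumors. These comparisons share the islet libraries.

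Several partner genes had functional tumors above non-functional ones without overlap, although none of them passed an adjusted test by edgeR, DESeq2 or limma-voom. The share over all tested genes was 8.77% in this direction. These genes were 5 of 13 genes of the menin and MLL complexes, 4 of 9 genes of H3 lysine 36 methylation, 5 of 14 of the PHLDA family and p53 targets, 4 of 27 of the TSC and mTOR pathway, 2 of 24 SWI/SNF subunits, 2 of 16 genes of H3.3 and telomere chromatin, and Cdkn1b. In the other direction, 2 SWI/SNF subunits (Smarca2 and Bcl7c) and Akt1s1 of the mTOR pathway were lower in functional tumors without overlap, as were 6.24% of tested genes. Marker sums also separated the tumor groups: proliferation markers stood at 1042 to 1406 CPM in functional and 701 to 940.3 CPM in non-functional tumors, acinar markers at 1.01 to 1.11 CPM and 49.3 to 369.5 CPM, and ductal markers at 125 to 176 CPM and 253 to 279 CPM. Their part in these values was not tested. Nsd2 had 114.8 to 139 CPM in functional and 75.8 to 80.6 CPM in non-functional tumors (log2 fold change 0.66, edgeR adjusted p = 0.4545). Cdkn1b had a log2 fold change of 0.71 (edgeR adjusted p = 0.4545). M5, a single non-functional tumor, was the lowest of the 6 tumors for all 9 genes of lysine 36 methylation. It was also the lowest for 7 of the 13 genes of the menin and MLL complexes, so the medians of these lists lean on it. The median over the list was 0.38 for lysine 36 methylation, 0.50 for the PHLDA family and p53 targets, 0.32 for the menin and MLL complexes, 0.45 for Cdkn1b and Cdkn2c, 0.13 for H3.3 and telomere chromatin, 0.06 for the TSC and mTOR pathway, -0.01 for SWI/SNF and 0.07 for the 9 members, against 0.01 over all tested genes.

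**Figure D4:**
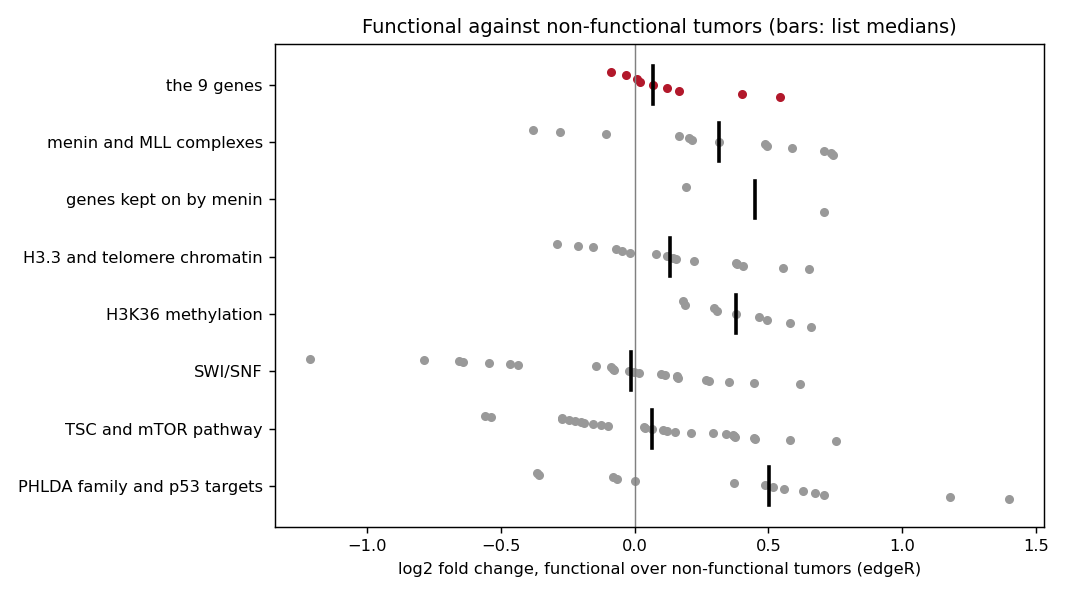
Log2 fold change of functional over non-functional tumors from edgeR for the 9 genes (top row) and for each list of partner genes, 1 point per tested gene, with the list median as a bar. The 9 genes lie between -0.09 and 0.54 (all above 0 without the TMM factor), all 9 points of H3K36 methylation lie above 0, and no gene drawn passed the adjusted test.

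How evenly each gene was expressed among tumors was read from the SD of log2(CPM + 0.5) over M1 to M6. Daxx (0.07), Arid1a (0.08) and Tsc2 (0.13) were among the most even genes of all, at percentiles 0.174, 0.206 and 1.34 of the SD over tested genes. Men1 stood at percentile 8.83, Atrx at 19.1, Tsc1 at 22.9 and Kmt2a at 30.9. Setd2 (SD 0.45) and Phlda3 (SD 0.55) were the 2 members above the median SD of all tested genes, 0.42.

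Loss of a member's RNA in a single tumor would show as 1 low library. The lowest tumor had 96.9% of the median of the other 5 for Daxx, 90.6% for Arid1a, 83.5% for Tsc2, 80.5% for Kmt2a, 79.5% for Tsc1, 74.1% for Atrx and 73.9% for Men1 (M4). For Setd2 it had 58.0% (M5) and for Phlda3 42.6% (M6), while the median over all tested genes was 62.3%. No tumor thus had the RNA of any member near 0, and the lowest tumor value relative to the islets was 63.1% of the islet mean (Men1 in M4). M4 is the tumor with the high mitochondrial share, and the log2 fold change of Men1 was -0.31 with mitochondrial genes removed. With M4 alone left out it was nearer to 0, at -0.25 (edgeR adjusted p = 0.434). With NI1 alone left out it was -0.42, and with NI1 and M4 both left out -0.36.

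**Figure D5:**
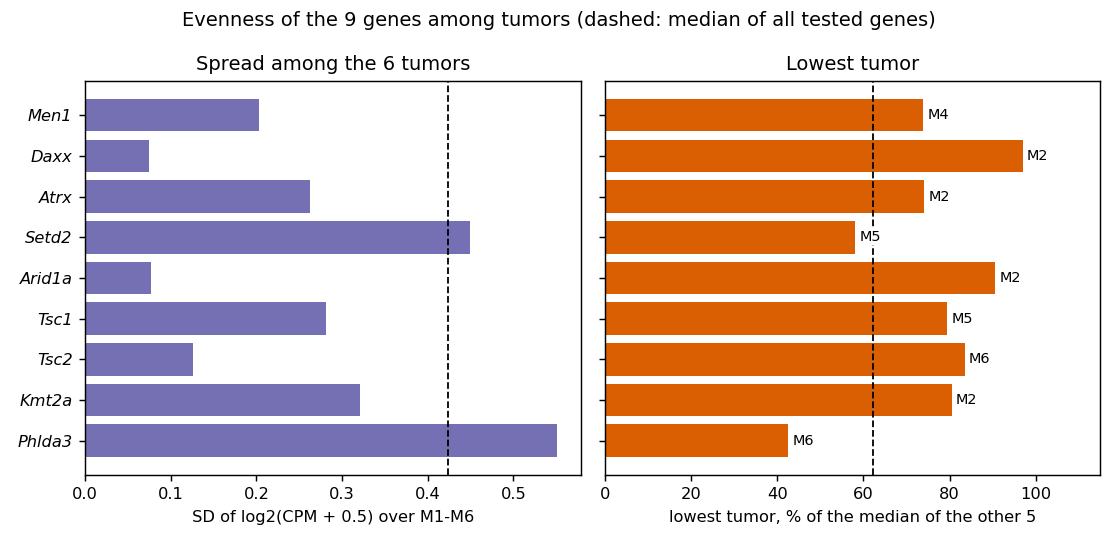
Left, SD of log2(CPM + 0.5) over the 6 tumors for each gene, with the median of all tested genes (0.42) as a dashed line. Right, the lowest tumor as a percentage of the median of the other 5, with that tumor named and the median of all tested genes (62.3%) dashed. Daxx (96.9%) and Arid1a (90.6%) are the most even, and Setd2 (58.0%) and Phlda3 (42.6%) fall below the dashed line.

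Levels of different genes were compared per length, as CPM per kilobase of annotated exons. In tumors Phlda3 was the highest of the 9 (21.5 ± 6.51 CPM per kilobase, SD, n = 6), followed by Arid1a (15.7 ± 0.83), Men1 (12.4 ± 1.70) and Kmt2a (11.8 ± 2.95). Tsc2 (10.6 ± 0.92), Atrx (9.35 ± 1.72) and Setd2 (9.24 ± 2.73) came next, and Daxx (7.33 ± 0.39) and Tsc1 (5.87 ± 1.17) were lowest. Neighbours in this order differed by less than the larger of their SDs, except that Arid1a exceeded Men1 and Daxx exceeded Tsc1 by more. In islets the order began with Men1 (15.4 ± 2.11, SD, n = 3) and Arid1a (13.4), and Phlda3 was next to last (5.66 ± 2.60) before Tsc1 (4.36 ± 1.13). Phlda3 thus stood first in 5 of the 6 tumors, the fourth in M6, the sixth in NI1, the eighth in NI2 and last in NI3.

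The members with fold changes above 0 were mostly long genes, with exons of 9620 bases or more in all but Phlda3 (1559 bases), whereas Men1 and Daxx have 3835 and 3151 bases. Over all tested genes the median log2 fold change of tumors against islets was 0.01 in genes of up to 2000 bases and 0.08 in the 1872 genes over 9000 bases, whose quartiles were -0.22 and 0.39. The values of Atrx, Setd2, Arid1a, Tsc2 and Kmt2a lay between the median and the upper quartile of that length class, and Tsc1 (0.43) lay above it. The part of length in these values was not tested.

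The genes most like each of 4 members over the 9 libraries were found by the Euclidean distance of centred log2(CPM + 0.5) among 15531 other genes. Nearest to Men1 were Mfn1 (distance 0.18) and Dguok (0.23), and nearest to Daxx were Rab9 (0.17) and Taf8 (0.22). Nearest to Atrx were Map4k4 (0.30) and Peak1 (0.33). For Phlda3 the nearest genes were Smc2 (0.61) and Ccnf (0.76). Both were lower in M6, with 35.5 and 10.6 CPM against 70.9 to 119 and 17.0 to 29.9 CPM in M1 to M5. Values were centred but not scaled, so genes that vary more have larger distances. The distances of different members can therefore not be compared as closeness of match. Among the members themselves, Men1 and Daxx were nearest to each other (0.42). The distances share the same libraries and their scaling and carry no test.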

How the data were processed

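RNA of 6 tumors and 3 islet samples was sequenced as single-end reads. The authors trimmed reads with Trimmomatic 0.38 and deposited estimated counts per gene from salmon 1.4.0 (mm10), as whole numbers with a different total in each library, although the table is named for TPM. The step from transcripts to genes is not given in the sources used here. Identifiers were matched to GENCODE for GRCm38 (54094 of 54347). Genes at 1 CPM or more in 3 or more libraries entered edgeR 4.0.16 (R 4.3.3) with TMM factors, and its quasi-likelihood F-test was used, with Benjamini-Hochberg adjustment over 15532 genes and a threshold of 0.05. DESeq2 1.42.0 and limma 3.58.1 were alternatives, with other filters and scalings, libraries left out and a replicate block. The members and lists were chosen with earlier results of these data known. Named list genes were the 2 with the smallest p in tumors against islets per list, with Trp53, Mtor, Cdkn1b and Cdkn2c, and 1 other that is not reported here. Fits were tested on simulated counts. Reads carried no molecular identifiers, so the limit of 3 counts covers counting error only. Promoter sequences are from RefSeq (GRCm38.p6).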

Additional observations from a re-analysis of the deposited data

Results flagged for a closer look

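Dixon's test of the highest and the lowest of the 6 tumors was run on the 26 named genes, where chance flags about 1 in 20 groups (1.3 here), and 2 were flagged. Phlda3 was flagged because M6, at 14.8 CPM, lay far below the other 5 tumors (34.1 to 45.5 CPM). Its gap to the next tumor was 0.628 of the whole range, just past the critical value of 0.625. Without M6 the log2 fold change of Phlda3 against islets was 2.08 (edgeR adjusted p = 0.0269). Kmt2a was flagged because M3, at 292.6 CPM, lay far above the other tumors (149 to 187 CPM), with a gap of 0.734 of the range. Cdkn1a and Eda2r, which were low in M6 as well, were not past the critical value.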

How the results depend on the processing

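The count of called members was 0 in 4 of the 5 comparisons and 1 (Phlda3) in tumors against islets without NI1. In tumors against islets it became 1 (Phlda3) by DESeq2, without a filter on low counts, with NI1 and M4 both left out and with NI1 and M6 both left out, and it ran from 0 to 1 over the fits that each left out 1 library (1 without NI1 and 1 without M6). For functional tumors it became 1 by DESeq2, without a filter and with NI1 and M4 left out, 2 (Tsc1 and Phlda3) with NI1 and M6 left out, and 0 to 2 with 1 library left out (2 without NI1). For non-functional tumors it became 1 by DESeq2 and with NI1 and M6 left out, and 0 to 1 with 1 library left out. Without NI1 it became 2 by DESeq2, and 0 to 1 with 1 further library left out: it was 0 without NI2 or without NI3, where the lone islet library is assumed to vary like the tumors. The cause was not tested. Between functional and non-functional tumors it was 0 throughout. Without the TMM factor the log2 fold change of Daxx reversed to 0.002553, and the median of all genes moved by 0.21. The other 8 members kept their direction in 19 of 19 alternatives of tumors against islets.

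Deviations from the group means of same-numbered functional tumors and islets had correlations of -0.04, 0.03 and -0.14. The differently numbered ones had -0.11 to 0.16. With 3 libraries in each group these values cannot decide whether the numbers pair the libraries. With a replicate block on these 6 libraries 0 members were called, as without it, and calls over all genes went from 41 higher and 89 lower to 10 and 25. The pairs to leave out were chosen after seeing the data. With 2 or 3 islet libraries, differences of the size seen in most members lie inside the intervals.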
